A study of Rattus norvegicus with 25 samples.

Results

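The 16S and 12S mitochondrial ribosomal RNAs are 2 of the 32883 Ensembl gene IDs counted in 25 RNA libraries of rat small intestine. They were taken to be ENSRNOG00000043866 (16S) and ENSRNOG00000030478 (12S), which were chosen by their counts, as the pair of IDs with the highest mean share of the counts in the libraries from OLETF rats. The names 16S and 12S came with that choice. Neither the count table nor the reference table used here annotates the IDs, so every statement on the large- or small-subunit rRNA rests on names that could not be checked. Both IDs were found in the table and both passed the filter on low counts in every fit. Since that share chose them, their high level in the OLETF libraries is given as a description without a test.

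Mitochondria carry a small circular genome that is copied into long RNAs and then cut into rRNAs, tRNAs and mRNAs. The 12S rRNA is the core of the small subunit and the 16S rRNA that of the large subunit of the mitochondrial ribosome, which makes the membrane proteins of the respiratory chain. The genes for both rRNAs lie side by side and are read in the same direction, with a tRNA gene between them. Intestinal epithelium is rich in mitochondria, which supply the energy for nutrient uptake. Library kits of the kind named for this series remove rRNA with probes before sequencing, so counts on an rRNA gene depend on how much of it the removal left as well as on how much the tissue held.

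The tissue came from rats after Roux-en-Y gastric bypass (RYGB), which joins a small stomach pouch to the jejunum, or after sham surgery. The OLE cohort, from OLETF rats that become obese and diabetic, held sections called glucotonic after RYGB (Glucotonic_OLE, 4 numbers), sections called non-glucotonic after RYGB (Nonglucotonic_OLE, the same 4 numbers) and distal intestine after sham surgery (Sham_OLE, 3 numbers). Number 13 gave 2 libraries in each RYGB group, and these were summed, so that 13 libraries made 11 samples. In the titles its glucotonic libraries share the label 13-38, and its non-glucotonic libraries carry different ones (13-33 and 13-34). The descriptions of its lane 7 libraries add a letter (I and D). The non-glucotonic library of number 19 is labelled 19-38-39. What the letters and the numbers after the first mark is not given, nor whether the libraries of a pair come from the same section. The first cohort, whose strain is not given in the sources used here, held the alimentary limb (RYGB_AL) and common limb (RYGB_CL) after RYGB and the jejunum (Sham_JEJU) and ileum (Sham_IL) after sham surgery, with 3 samples each. The age of the rats, and how a section was judged glucotonic, are likewise not given, and the labels name the same extraction and rRNA removal kits for both cohorts.

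Total counts (M, mega) ran from 18.1 M to 25.6 M per OLE library and from 23.7 M to 49.3 M per first-cohort library. Without the rRNAs, 8.48 M to 12.8 M counts were left per OLE library and 23.6 M to 49.2 M per first-cohort library, and 13612 to 14244 IDs reached 10 counts per OLE library against 14919 to 15724 per first-cohort library. Since the table gives IDs without names, the tissue could not be checked against marker genes and no mitochondrial mRNA or protein gene could be set beside the rRNAs by name.

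The 16S rRNA, the RNA of the large ribosomal subunit, took 35.5% to 52.6% of all counts in the OLE libraries and 0.182% to 1.47% in the first-cohort libraries. It was the ID with the most counts in all 13 OLE libraries, and ranked from 3 to 43 in the first cohort. Its mean share was 43.6% over OLE libraries and 0.510% over first-cohort libraries, an 85.4-fold difference. The 12S rRNA, the RNA of the small subunit, took 3.88% to 15.7% of OLE counts and 0.00948% to 0.106% of first-cohort counts, a 214-fold difference between the means of 8.01% and 0.0375%. It ranked 2 in each OLE library and between 84 and 2404 in the first cohort. Just outside the choice, the next ID of the OLE libraries, ENSRNOG00000034234, averaged 1.71% there and 1.42% in the first cohort, where it ranked 1.

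**Figure D1:**
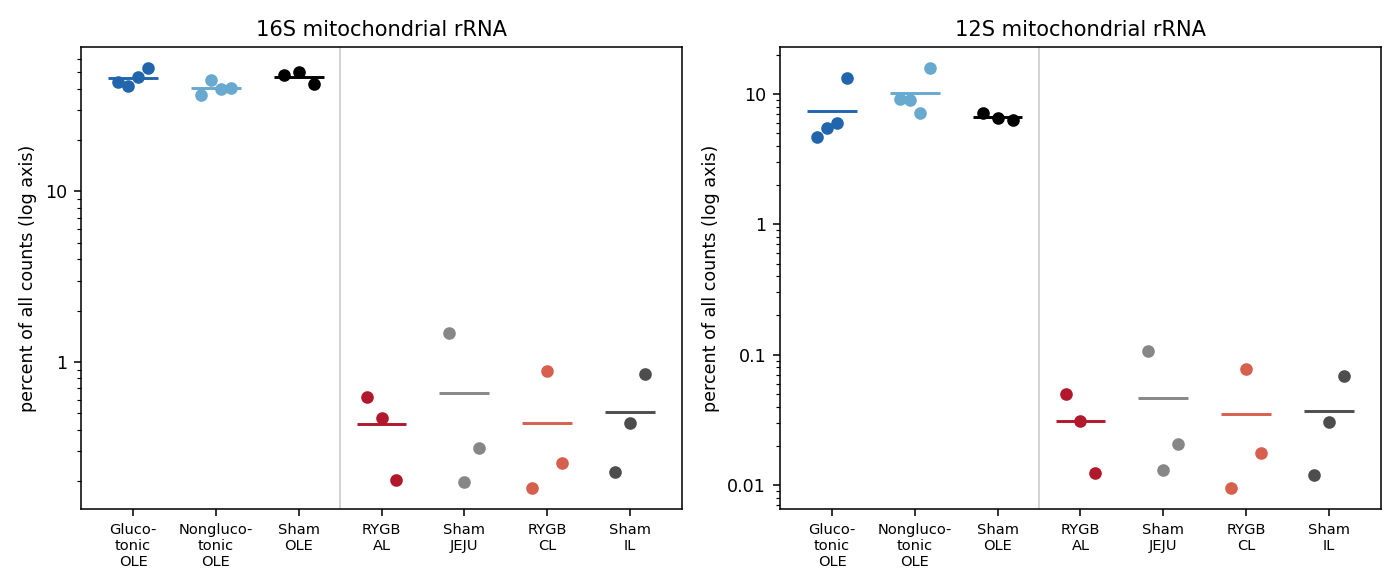
Share of all counts on the 16S (left) and 12S (right) mitochondrial rRNA on log axes, with a point for each sample and a line at the group mean. The grey line parts the OLE cohort (left) from the first cohort; 16S lies between 36.6% and 52.6% in OLE samples and at most at 1.47% in first-cohort samples.

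Counted against the other IDs only, so that the members do not enlarge their own denominator, 16S averaged 926 counts per 1000 other counts in OLE libraries and 5.15 in first-cohort libraries, a 180.0-fold difference. On the same scale 12S averaged 174 in OLE libraries and 0.378 in first-cohort libraries, a 459-fold difference. Of 11096 IDs with a mean of at least 5 CPM (counts scaled to a common library total) on that scale, 12S ranked 1 and 16S ranked 3 by the ratio of OLE to first cohort. With a pseudocount of 1 CPM, the median ID differed by -0.00209 on the log2 scale, the 5th and 95th percentiles were -0.74 and 0.74, and 16 IDs in all were over 16-fold higher in the OLE cohort. How completely rRNA was removed, and whether the removal probes covered mitochondrial rRNA alike in both cohorts, is not given beyond the kit name. Tissue level, rRNA removal, rat strain and kind of section cannot be told apart in this difference.

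Within the OLE cohort, 16S held 43.6%, 41.6%, 46.5% and 52.6% of counts in Glucotonic_OLE numbers 13, 16, 18 and 19. It held 36.6%, 45.0%, 40.0% and 40.3% in the same numbers of Nonglucotonic_OLE, and 42.7%, 47.8% and 50.1% in Sham_OLE numbers 4, 22 and 23. The groups overlapped, with means of 46.0 ± 4.80% in Glucotonic_OLE, 40.5 ± 3.45% in Nonglucotonic_OLE (SD, n = 4 each) and 46.9 ± 3.78% in Sham_OLE (SD, n = 3). The large-subunit rRNA was the steadier member, with a highest share 1.44 times the lowest, but so large a share is held down by its own denominator. Per 1000 other counts the highest OLE sample was 2.29 times the lowest for 16S and 4.31 times for 12S.

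The 12S rRNA spread further. It held 4.69%, 5.43%, 5.94% and 13.3% of counts in Glucotonic_OLE numbers 13, 16, 18 and 19. In Nonglucotonic_OLE it held 9.07%, 9.03%, 7.10% and 15.7% in the same numbers, and in Sham_OLE 6.28%, 7.20% and 6.54% in numbers 4, 22 and 23. Number 19 was the highest of each RYGB group, and every number had a larger 12S share in its non-glucotonic than in its glucotonic section. Group means were 7.34 ± 4.01% in Glucotonic_OLE, 10.2 ± 3.77% in Nonglucotonic_OLE (SD, n = 4 each) and 6.67 ± 0.476% in Sham_OLE (SD, n = 3).

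Neither rRNA passed the test across all IDs in any OLE comparison (edgeR quasi-likelihood test over 14495 IDs, with 0.05 as the threshold for a p adjusted by Benjamini-Hochberg), and neither had an unadjusted p under 0.05. For Glucotonic_OLE against Sham_OLE, where 0.0345% of all IDs were called, the log2 change was 0.17 (SE 0.33) for 16S and 0.41 (SE 0.49) for 12S, with adjusted p of 0.820 and 0.708 (edgeR). DESeq2 called 523 IDs here, against 5 by edgeR. Without both sections of number 19, edgeR called 1862 IDs and the log2 changes of the rRNAs were -0.03 and -0.25. For Nonglucotonic_OLE against Sham_OLE, where 0% were called (936 IDs at an unadjusted p under 0.05, and 27 called by DESeq2), they were -0.17 (SE 0.32) for 16S and 0.65 (SE 0.50) for 12S, with adjusted p of 0.927 and 0.828 (edgeR). With lane 7 as a covariate, the 12S value against Sham_OLE was -0.02 for Nonglucotonic_OLE and -0.41 for Glucotonic_OLE. All Sham_OLE libraries came from lane 7, as did 1 library of number 13 in each RYGB group. That term thus sets these libraries of number 13 against all others of their groups, number 19 among them. It is not a lane difference within a number.

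Glucotonic_OLE against Nonglucotonic_OLE gave 0.35 (SE 0.30) for 16S and -0.24 (SE 0.45) for 12S, with an adjusted p of 1.000 for each (edgeR; 0% of IDs called, 388 at an unadjusted p under 0.05, 3 called by DESeq2). Without both sections of number 19 these were 0.14 (SE 0.32) for 16S and -0.62 (SE 0.29) for 12S, with an unadjusted p of 0.0549 and an adjusted p of 0.999 for 12S (edgeR). Without the glucotonic section of number 19 alone, 12S was -0.90, and without its non-glucotonic section alone 0.048. With the number as a replicate block, which the sections' shared numbers allow, 0.179% of IDs were called and the values were 0.33 (SE 0.27) and -0.41 (SE 0.25), with adjusted p of 0.659 and 0.540 (edgeR). Per 1000 other counts, 12S in the glucotonic section stood at 0.542, 0.522, 0.929 and 1.09 times the non-glucotonic level of numbers 13, 16, 18 and 19, so on this scale number 19 went the other way.

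Together the rRNAs took 53.4 ± 8.64% of counts in Glucotonic_OLE, 50.7 ± 5.07% in Nonglucotonic_OLE (SD, n = 4 each) and 53.5 ± 4.03% in Sham_OLE (SD, n = 3). The differences were -0.158 percentage points for Glucotonic_OLE against Sham_OLE, -2.85 for Nonglucotonic_OLE against Sham_OLE and 2.69 for Glucotonic_OLE against Nonglucotonic_OLE (two-sided exact permutation p of 0.971, 0.343 and 0.714, each 1.00 after adjustment over 14 tests). In the first cohort the share of both was 0.463 ± 0.229% in RYGB_AL, 0.708 ± 0.756% in Sham_JEJU, 0.476 ± 0.422% in RYGB_CL and 0.543 ± 0.350% in Sham_IL (SD, n = 3 each), with no exact permutation p under 0.80.

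**Figure D2:**
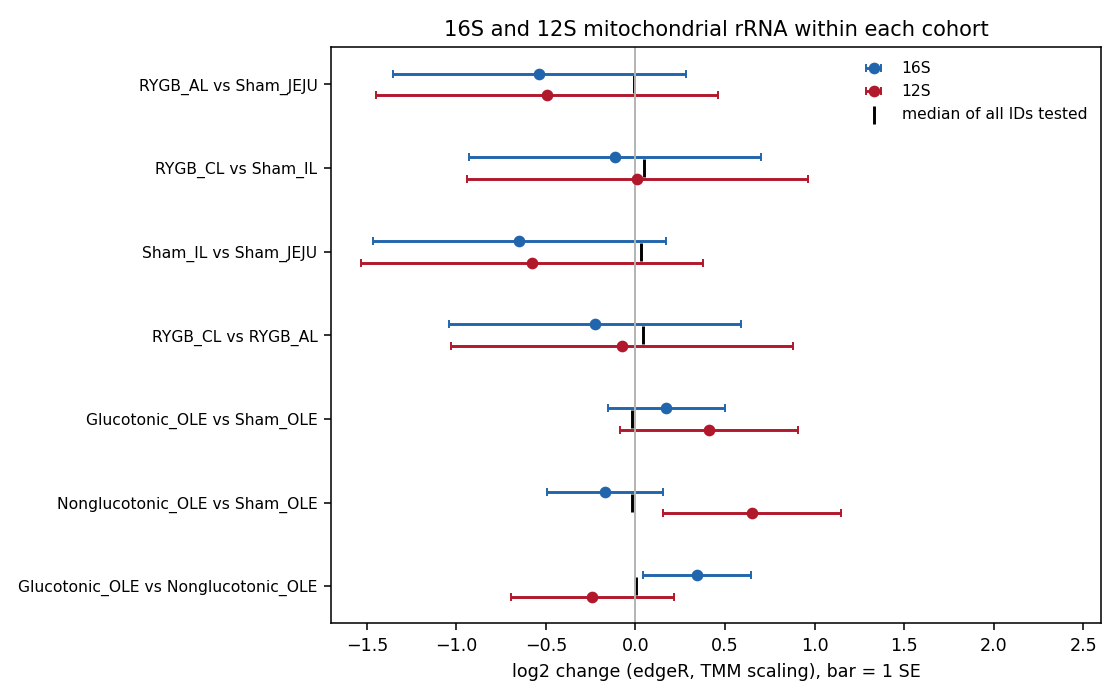
Log2 change of 16S (blue) and 12S (red) in 7 comparisons within a cohort, each first-named group over the second, with bars of 1 SE (edgeR, TMM scaling); the black mark is the median of all IDs tested. No value passed the test; the bars are widest in the first cohort, with SEs of 0.82 to 0.96.

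The ratio of 16S to 12S counts does not depend on the library total or on other IDs. How much of each rRNA the removal left in a library still enters the ratio and is not given. The ratio is not corrected for gene length, so it is compared only between samples. In the OLE cohort it was 9.30, 7.65, 7.83 and 3.95 in Glucotonic_OLE numbers 13, 16, 18 and 19. It was 4.03, 4.98, 5.64 and 2.56 in the same numbers of Nonglucotonic_OLE, and 6.81, 6.63 and 7.66 in Sham_OLE numbers 4, 22 and 23. The non-glucotonic section had the lower ratio in 4 of 4 numbers, with the glucotonic ratio 2.31, 1.54, 1.39 and 1.54 times as high in numbers 13, 16, 18 and 19.

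Means of the ratio were 7.18 ± 2.28 in Glucotonic_OLE, 4.30 ± 1.33 in Nonglucotonic_OLE (SD, n = 4 each) and 7.03 ± 0.549 in Sham_OLE (SD, n = 3). The 4 Nonglucotonic_OLE samples all lay below the 3 Sham_OLE samples, by a mean of -0.77 on the log2 scale (exact permutation test, two-sided, p = 0.0571, the smallest these group sizes allow, and 0.80 after adjustment over 14 tests). Glucotonic_OLE stood 0.73 above Nonglucotonic_OLE on the log2 scale, with overlap through Glucotonic_OLE 19 (two-sided exact permutation test, p = 0.114, adjusted p = 0.80). Paired by number, that difference gave p = 0.125, the smallest 4 pairs allow (exact sign-flip permutation test, two-sided). Glucotonic_OLE and Sham_OLE differed by -0.04 (exact permutation test, two-sided, p = 0.971, adjusted p = 1.00). None of these passed, so the lower ratio of the non-glucotonic sections stands as the values of these samples.

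Values within lanes were set beside this, since the libraries of the OLE cohort were spread over lanes 4 to 7. In lane 4 the 3 Glucotonic_OLE libraries had ratios of 8.17, 7.65 and 7.83 and the 2 Nonglucotonic_OLE libraries 3.90 and 4.98, with no overlap. In lane 7 the single Glucotonic_OLE library had 10.8 and the single Nonglucotonic_OLE library 4.14, and the 3 Sham_OLE libraries had 6.63 to 7.66. Number 13 also shows how far libraries of one number can part. Its glucotonic libraries had a 12S share of 5.52% in lane 4 and 3.88% in lane 7, and their ratios differed 1.33-fold. They share a title label but not a full description, and whether they are the same section is not given. The non-glucotonic libraries of number 13, whose title labels differ, had 12S shares of 9.10% and 9.05% and ratios 1.06-fold apart.

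**Figure D3:**
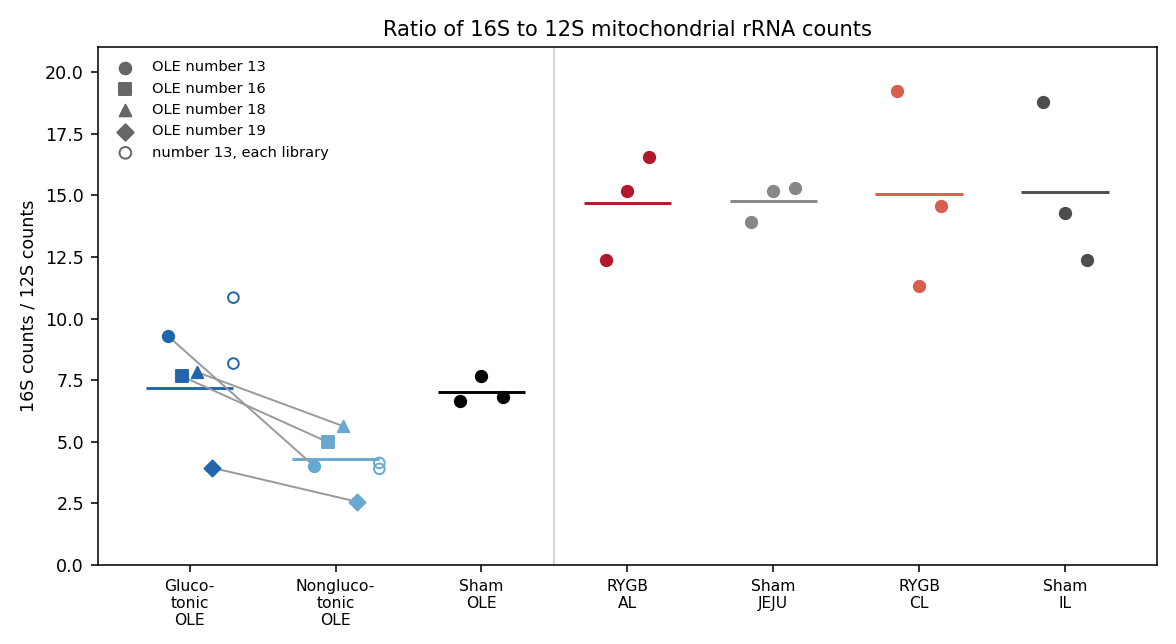
Ratio of 16S to 12S counts per sample (filled points, with a line at the group mean); grey lines join the glucotonic and non-glucotonic section of a number and open circles show the libraries of number 13. Each number has its lower ratio in the non-glucotonic section, and all OLE samples (2.56 to 9.30) lie below all first-cohort samples (11.3 to 19.2).

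In the first cohort 16S held 0.620%, 0.204% and 0.472% of counts in RYGB_AL samples 1-1, 2-3 and 15-29, and 0.314%, 1.47% and 0.199% in Sham_JEJU samples 8-15, 14-28 and 15-30. It held 0.182%, 0.257% and 0.883% in RYGB_CL samples 1-1, 2-3 and 15-29, and 0.855%, 0.226% and 0.437% in Sham_IL samples 8-15, 14-28 and 15-30. Each group held both low and high samples, and the highest sample of Sham_JEJU was 7.40 times its lowest. Group means were 0.432 ± 0.211% in RYGB_AL, 0.662 ± 0.705% in Sham_JEJU, 0.441 ± 0.385% in RYGB_CL and 0.506 ± 0.320% in Sham_IL (SD, n = 3 each).

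The 12S rRNA followed the same order of samples within each group. It held 0.0501%, 0.0124% and 0.0311% of counts in RYGB_AL samples 1-1, 2-3 and 15-29, and 0.0205%, 0.106% and 0.0131% in Sham_JEJU samples 8-15, 14-28 and 15-30. It held 0.00948%, 0.0176% and 0.0780% in RYGB_CL samples 1-1, 2-3 and 15-29, and 0.0691%, 0.0120% and 0.0306% in Sham_IL samples 8-15, 14-28 and 15-30. The small-subunit rRNA ranged 11.2-fold over the 12 samples and the large-subunit rRNA 8.07-fold. A number did not keep its place between segments: 14-28 was the lowest of Sham_IL and the highest of Sham_JEJU for both rRNAs, and 1-1 was the lowest of RYGB_CL and the highest of RYGB_AL.

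None of the first-cohort comparisons passed for either rRNA, over 16146 IDs tested, and neither had an unadjusted p under 0.05. For RYGB_AL against Sham_JEJU, where 7.66% of all IDs were called, the log2 change was -0.54 (SE 0.82) for 16S and -0.49 (SE 0.95) for 12S, with adjusted p of 0.755 and 0.815 (edgeR); without Sham_JEJU 14-28 these were 0.76 and 0.90. For RYGB_CL against Sham_IL, where 0% were called (1268 IDs at an unadjusted p under 0.05, 93 called by DESeq2), they were -0.11 (SE 0.82) and 0.01 (SE 0.95), with adjusted p of 0.977 and 0.998 (edgeR). For 16S the direction turned without RYGB_CL 1-1 (0.28), RYGB_CL 2-3 (0.19) or Sham_IL 8-15 (0.55), and for 12S without RYGB_CL 15-29 (-1.48), Sham_IL 14-28 (-0.40) or Sham_IL 15-30 (-0.16). The surgery effect did not pass as different between the limbs either, with differences of -0.42 (SE 1.15) for 16S and -0.50 (SE 1.35) for 12S and an adjusted p of 0.932 and 0.931 (edgeR, 0.607% of IDs called; a test chosen after the values were seen).

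Between segments, Sham_IL against Sham_JEJU gave -0.65 (SE 0.82) for 16S and -0.58 (SE 0.96) for 12S, with adjusted p of 0.625 and 0.715 and 9.22% of IDs called (edgeR). Without Sham_JEJU 14-28 the values were 0.66 and 0.83. RYGB_CL against RYGB_AL gave -0.23 (SE 0.82) and -0.08 (SE 0.95), with adjusted p of 0.876 and 0.968 and 9.32% of IDs called (edgeR). Here 16S and 12S turned to 0.16 and 0.39 without RYGB_CL 1-1, to 0.073 and 0.27 without RYGB_CL 2-3, and to 0.14 and 0.47 without RYGB_AL 1-1. The SEs exceeded each of these values, so segment differences of this size were not detectable against the spread between samples.

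The 16S to 12S ratio of the first cohort was 12.4, 16.5 and 15.2 in RYGB_AL samples 1-1, 2-3 and 15-29, and 15.3, 13.9 and 15.2 in Sham_JEJU samples 8-15, 14-28 and 15-30. It was 19.2, 14.6 and 11.3 in RYGB_CL samples 1-1, 2-3 and 15-29, and 12.4, 18.8 and 14.3 in Sham_IL samples 8-15, 14-28 and 15-30. Means were close, at 14.7 ± 2.13 in RYGB_AL, 14.8 ± 0.753 in Sham_JEJU, 15.0 ± 3.98 in RYGB_CL and 15.1 ± 3.30 in Sham_IL (SD, n = 3 each). All 4 comparisons gave differences between -0.022 and 0.014 on the log2 scale and exact two-sided permutation p of 0.90 or 1.00, where 3 against 3 cannot go below 0.10. The sample with the highest ratio, RYGB_CL 1-1, had the lowest share of both rRNAs.

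Both rRNAs moved together across the first cohort. Averaged over the samples of a number on the log2 scale, their shares correlated over 6 numbers with Pearson's r of 0.988 (two-sided exact permutation p = 0.00556, or 0.0222 when adjusted for 4 tests) and Spearman's rho of 0.943 (p = 0.0167, adjusted p = 0.0333, same exact test). With numbers 2-3 and 15-29 left out, those farthest from the median 16S share, r was 0.977. That a number is 1 rat is not stated, and the numbers are taken here as independent samples. Of these, 15-29 (RYGB) and 15-30 (sham) share the first part of their label, and what that part marks is not given. In the OLE cohort, r over 7 numbers was 0.233 (exact permutation, two-sided, p = 0.633, adjusted p = 0.633) and rho was 0.643 (p = 0.139, adjusted p = 0.185, same exact test). Pearson's r was 0.772 without numbers 22 and 23, 0.349 without number 19 and 0.222 without all 3 of these. Over the 11 samples it was 0.0122, or -0.25 over the 9 samples without number 19, so no relation is read from the OLE cohort. These r depend on the denominator, since they use shares of all counts. The rRNAs themselves made up 45.7% to 65.9% of those counts in OLE samples, against 0.192% to 1.58% in first-cohort samples. In the OLE cohort a larger share of one thus leaves less for the other. With TMM-scaled log2 CPM, r over the 11 OLE samples was 0.467. The SD of the log2 share over samples was 0.15 for 16S and 0.54 for 12S in the OLE cohort, and 1.00 and 1.19 in the first cohort; a difference between the cohorts' correlations was not tested.

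**Figure D4:**
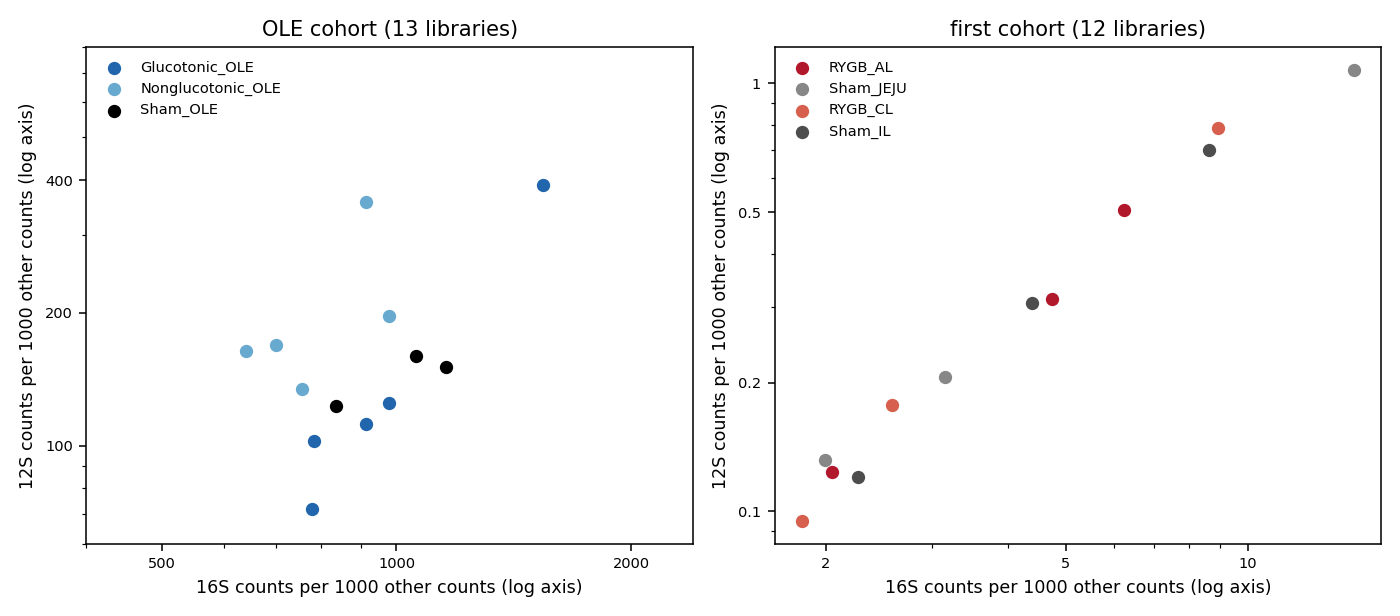
12S against 16S counts per 1000 other counts in each library on log axes, for the OLE cohort (left) and the first cohort (right). First-cohort libraries lie along a line, from 1.83 to 15.0 for 16S, while OLE libraries scatter, with both sections of number 19 highest for 12S.

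Set against every other ID by Pearson's r of log2 CPM over a cohort's samples, 12S was the most like 16S of 10941 IDs in the first cohort (r = 0.993, 12 samples). The next most like was ENSRNOG00000029971 for 16S (r = 0.933) and ENSRNOG00000024437 for 12S (r = 0.917). In the OLE cohort 12S ranked 408 of 9310 IDs by likeness to 16S (r = 0.467, 11 samples), and 16S ranked 1668 by likeness to 12S. The most like IDs there were ENSRNOG00000014171 for 16S (r = 0.898) and ENSRNOG00000056148 for 12S (r = 0.937). The r of the most like IDs were picked as the highest of all IDs compared. All of these r describe these samples only, and some samples share a number.

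Counting error is small beside these spreads. The exact Clopper-Pearson 95% interval of a library's share reached at most 0.0621% of the value for 16S and 0.20% for 12S in OLE libraries, and 0.870% and 3.84% in first-cohort libraries, where the lowest 12S count was 2636. Reads are not independent molecules, so these intervals cover counting error only. Fewer mitochondria-rich cells and less rRNA per cell cannot be told apart in bulk tissue. Nuclear genomes hold copies of mitochondrial sequence, and how reads matching both were counted is not given, so the values are uncertain to that extent.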

How the data were processed

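Per the labels' protocols, rRNA was removed with probes and stranded libraries were made from RNA of rat small intestine. The submitters' processing notes name FastQC, STAR and build rn6. Not given in the sources used here are the counter, the annotation, its strand setting and what was done with reads matching several places. The values deposited by the authors are raw counts per Ensembl ID for 25 libraries: whole numbers with unequal library totals. The reference table matched 0 of 32883 IDs, so pathway and marker lists were not used.

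Groups came from sample titles and lanes from the descriptions. Libraries of one number within a group were summed (chi-square per degree of freedom 35.6 and 30.0 between the libraries of number 13; lowest of any within-group pair 16.3, so none was counted as a repeat). Nothing says that samples are separate animals, so p-values measure the spread between them. Each cohort was fitted alone with edgeR 4.0.16 in R 4.3.3 (filterByExpr with at least 10 counts and a total of 15, TMM, robust quasi-likelihood fit, Benjamini-Hochberg over all IDs); DESeq2 1.42.0 was an alternative. SEs were derived from each test's F statistic. Ratios and shares were compared by exact permutation (scipy 1.17.1), adjusted over 14 tests. Likeness used log2 CPM with a prior count of 2, over IDs with a mean of at least 5 CPM. The rule named the 2 members and, per member and cohort, the most alike IDs, of which at most 2 are printed. Deviations from the group mean correlated within each OLE number (r = 0.341 to 0.811, above 0.1 for all 4, against -0.648 to 0.444 between numbers). On that ground the numbers were taken to pair the sections. The ranges overlap: r was 0.341 within number 18 and 0.444 between glucotonic 18 and non-glucotonic 16. Number 19 had the 0.811, so the check bears out the pairing only weakly for the other numbers. In the first cohort the numbers were not taken to pair the segments (r = -0.0481 to 0.275). The fit was also run on simulated counts. Neither rRNA was among the IDs changed there, so that run does not show what change of these rRNAs could be detected. Members and lists were chosen with earlier results of these data known. Alternatives were DESeq2, its size factors, no filter, scaling without the members, fits of 2 groups alone, leaving out each replicate, number 13 apart, lane 7 as a covariate, number 19 left out, lane 4 only, other counts as denominator, and the replicate block.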

Additional observations from a re-analysis of the deposited data

Results flagged for a closer look

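The 12S share of Glucotonic_OLE 19 was 13.3%, far from the other samples of its group, of which the highest had 5.94%; its 16S share was 52.6% and its 16S to 12S ratio 3.95. Of 8 sets of values examined, in groups of 4 samples, 1 held such a sample, where chance gives about 1 in 20, and the sets reuse the same samples. That library was the only one of lane 6, so lane and sample cannot be told apart. The non-glucotonic library of the same number, labelled 19-38-39 and from lane 5, had a 12S share of 15.7%. That was also the highest of its group, with 9.07% as the next value.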

How the results depend on the processing

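No alternative brought a log2 change of either rRNA past the threshold: over 94 alternatives other than leaving out a sample the lowest adjusted p was 0.50 (edgeR or DESeq2), and 88 kept their direction. The lowest unadjusted p among these was 0.0549, for 12S in Glucotonic_OLE against Nonglucotonic_OLE without number 19 (log2 change -0.62, edgeR). The 6 that turned were values near 0 or those against Sham_OLE: with only the groups compared, 12S in RYGB_CL against Sham_IL was -0.00355. With lane 7 as a covariate, Glucotonic_OLE against Sham_OLE was -0.17 for 16S and -0.41 for 12S, and Nonglucotonic_OLE against Sham_OLE was -0.019 for 12S. Without both sections of number 19, Glucotonic_OLE against Sham_OLE was -0.034 for 16S, -0.25 for 12S and 0.23 for the log2 ratio. With the libraries of number 13 counted apart, as if separate samples, the log2 ratio was 0.060 for Glucotonic_OLE against Sham_OLE, -0.77 for Nonglucotonic_OLE against Sham_OLE (exact permutation p = 0.0357) and 0.83 for Glucotonic_OLE against Nonglucotonic_OLE (exact permutation p = 0.0317). These p are unadjusted, and both fell under 0.05 only with that double counting. In lane 4 alone the last difference was 0.84 (p = 0.20, the smallest exact permutation p for 3 against 2). Taken per other counts on the log2 scale, the share of both rRNAs in RYGB_CL against RYGB_AL was -0.18, while the difference in percent was 0.0125. The cause of each turn was not tested.

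Leaving out each sample in turn moved the log2 change over these ranges, with no call made. For RYGB_AL against Sham_JEJU they were -0.96 to 0.76 (16S) and -1.04 to 0.90 (12S), for RYGB_CL against Sham_IL -1.23 to 0.55 and -1.48 to 0.88, for Sham_IL against Sham_JEJU -1.31 to 0.66 and -1.45 to 0.83, and for RYGB_CL against RYGB_AL -1.34 to 0.16 and -1.57 to 0.47. For Glucotonic_OLE against Sham_OLE they were -0.00496 to 0.27 and -0.23 to 0.62, for Nonglucotonic_OLE against Sham_OLE -0.29 to -0.08 and 0.36 to 0.82, and for Glucotonic_OLE against Nonglucotonic_OLE 0.14 to 0.48 and -0.90 to 0.048. The lowest of the last, without Glucotonic_OLE 19, had the lowest unadjusted p, 0.0249 (edgeR). The log2 ratio, in the same order of comparisons, ranged over -0.11 to 0.10, -0.22 to 0.17, -0.15 to 0.15, -0.18 to 0.20, -0.18 to 0.23, -0.92 to -0.54 and 0.50 to 1.00. The difference in the share of both rRNAs ranged, in percentage points, over -0.493 to 0.190, -0.310 to 0.123, -0.413 to 0.270, -0.230 to 0.154, -4.32 to 1.97, -5.12 to -1.16 and -1.48 to 4.82.

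Counts of called IDs moved more. DESeq2 called 2029 for RYGB_AL against Sham_JEJU, where edgeR called 1237, 2639 for Sham_IL against Sham_JEJU (1489), 2771 for RYGB_CL against RYGB_AL (1504) and 523 for Glucotonic_OLE against Sham_OLE (5). Leaving out 1 sample, edgeR called 484 to 1212 IDs for RYGB_AL against Sham_JEJU (fewest without RYGB_AL 15-29, and 503, 557 and 792 without RYGB_AL 2-3, Sham_JEJU 14-28 and Sham_JEJU 8-15). It called 0 to 56 for RYGB_CL against Sham_IL (56 without RYGB_CL 2-3, 0 with all samples). For Sham_IL against Sham_JEJU it called 235 to 1580 (fewest without Sham_IL 15-30, and 275, 882, 690 and 546 without Sham_IL 8-15, Sham_IL 14-28, Sham_JEJU 15-30 and Sham_JEJU 8-15). For RYGB_CL against RYGB_AL it called 396 to 2237 (fewest without RYGB_AL 2-3, and 485, 763 and 571 without RYGB_AL 15-29, RYGB_CL 1-1 and RYGB_CL 2-3), and for Glucotonic_OLE against Sham_OLE 0 to 103 (most without Sham_OLE 4). The count for Glucotonic_OLE against Sham_OLE was 1862 without number 19, 28 with no filter, 31 with the libraries of number 13 apart, 1 scaled without the members, and 0 with only the groups compared or lane 7 as a covariate; Nonglucotonic_OLE against Sham_OLE had 157 without number 19. RYGB_CL against RYGB_AL had 432 with only the groups compared. With the replicate block, 690 IDs were called for Sham_IL against Sham_JEJU and 190 for RYGB_CL against RYGB_AL, and the changes of the rRNAs were -0.21 and -0.14 for the first and -0.42 and -0.37 for the second (16S and 12S). The block changed no call of a member.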
